A study of Gossypium hirsutum with 16 samples.

Results

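The genes described here lie on chromosome D05 of upland cotton, Gossypium hirsutum, as given by gene IDs that begin with Gh_D05G. Of 3603 such IDs in the table, 2883 had an FPKM of 0.5 or more in at least 4 of the 16 libraries and were kept, beside 55040 IDs kept in all. FPKM is the number of sequenced fragments scaled to transcript length and to the number of mapped fragments, so levels are per length. The 2883 genes were ordered by the number in the ID, which is called their place below. The genes were thus chosen by their measured FPKM and by chromosome. They were compared with 21777 kept genes of the other 12 D chromosomes and with 2904 kept genes of A05. D05 itself was selected on the called shares, since a larger share of its genes than of other D chromosomes was called in earlier results of these data. The shares by chromosome are therefore a description and carry no test.

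RNA came from shoot apices (stem tips) of seedlings of 2 cotton strains, each in a control state and with GhBRC1 silenced by virus-induced gene silencing. Strain 3798 has the nulliplex-branch phenotype, and the other strain, labelled Jinxian-short branch and called JX below, has short fruit branches. The 4 groups were 3798 control, 3798 silenced, JX control and JX silenced, with 4 libraries each. What the control seedlings received and which silencing vector was used are not in the labels. Neither is whether each replicate was a plant of its own; p-values therefore reflect library-to-library spread, which may be technical.

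BRC1 encodes a transcription factor of the TCP family that in Arabidopsis restrains the outgrowth of axillary buds. In virus-induced gene silencing, a plant virus carrying a fragment of the target transcript makes the plant degrade that transcript. Upland cotton is an allotetraploid with an A and a D subgenome, and many genes of D05 have a near-identical homoeolog on A05, so reads can be split between the copies. The IDs carry no gene names, and 0 of the 70422 IDs in the table matched a name table of 99454 cotton genes, so no function is given for any gene and the level of GhBRC1 itself could not be checked. In whole apices, fewer cells of a type and less RNA per cell cannot be told apart.

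3 libraries stood apart from the rest of their groups in a principal component analysis of all kept genes. The library labelled 3798 control 3 lay at 76.0 on the first component, where the other 3798 controls lay between -13.02 and 2.97 and the JX controls between 88.8 and 105. The libraries 3798 silenced 4 (-22.8) and JX silenced 4 (4.43) lay above the rest of their groups, which reached at most -75.5 and -54.9. No 2 libraries held identical values. Relative depth estimated from low values ranged from 0.909 to 1.33 of the first library. This estimate is uncertain, since just 13.2% of the low values came within 0.02 of being whole reads, and absolute depth is unknown. Whether the label or the sample of 3798 control 3 is right was not tested. The 3798 silencing comparison, the control comparison and the interaction below all depend on it. Without it, the D05 genes called in the silencing comparisons went from 413 to 506 in 3798. They went from 935 to 1044 in JX, where the fit shares its estimate of spread over all groups. Results are given for all 16 libraries, and the main counts also with these 3 left out.

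D05 as a whole did not stand out in level. Its median gene had a mean of 5.49 FPKM over the 16 libraries, against 5.31 on the other D chromosomes and 5.40 on A05, and its genes ranged from 0.221 to 674 FPKM. D05 genes supplied 11.99% ± 0.195 of all D-chromosome FPKM in 3798 controls and 12.13% ± 0.172 in 3798 silenced apices (SD, n = 4). In JX the shares were 11.90% ± 0.103 in controls and 11.997% ± 0.234 in silenced apices (SD, n = 4). The groups overlapped in both strains. Fewer D05 genes were listed at 0 in silenced libraries, with 11 to 26 in 3798 and 12 to 19 in JX, than in control libraries, with 27 to 34 and 29 to 37. Over all kept IDs the shares listed at 0 were also lower in silenced libraries, 0.723% to 0.981% against 0.999% to 1.08% in 3798 and 0.561% to 0.890% against 1.03% to 1.32% in JX. In 3798 the ranges overlapped on the other D chromosomes, 0.455% to 0.666% in silenced against 0.620% to 0.758% in control libraries. They also overlapped on A05, 0.275% to 0.758% against 0.413% to 0.689%. In JX they were apart on A05 and met at 0.615% on the other D chromosomes. A listed 0 can be a failed estimate, since no read counts accompany the values.

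In strain 3798, 413 of the 2883 D05 genes differed between silenced and control apices, 260 higher and 153 lower in silenced apices. Genes were called by limma on log2(FPKM + 0.5) with a Benjamini-Hochberg adjusted p under 0.05 over all kept IDs. The 413 genes were 14.3% of D05 genes, where 12.8% of all kept IDs were called (7.51% higher and 5.28% lower). The other D chromosomes together had 12.98% and A05 had 13.6%. Among the 13 D chromosomes D05 ranked first, just above D10 at 14.1%, and the lowest was D03 at 11.7%. D05 also ranked first in the share of genes that rose, 9.02%, but sixth in the share that fell, 5.31%. At least 2-fold changes were called for 139 genes, or 4.82% against 4.17% of all kept IDs, and 27 changed at least 4-fold, or 0.937% against 0.977% of all kept IDs. The 4 control and 4 silenced libraries did not overlap for 510 D05 genes, 17.7% against 16.2% of all kept IDs.

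The count of 413 fell to 260 without 3798 control 2 and rose to 639 with libraries weighted by their spread. The place of D05 among the D chromosomes in strain 3798 was not stable either. Over 28 settings of the analysis its rank ranged from 1 to 6. The excess over the other D chromosomes, 1.348 percentage points, ranged over the same settings from 0.151 at an adjusted p under 0.01 (6.45% against 6.30%) to 2.47 without the 3 libraries that stood apart. With single libraries left out it ranged from 0.399 without 3798 control 2 to 1.79 without 3798 silenced 4. Without those 3 libraries, 341 D05 genes rose and 228 fell, or 19.7% against 17.3% on the other D chromosomes.

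In strain JX, 935 D05 genes differed by the same limma test and adjusted p, 477 higher and 458 lower in silenced apices. This was 32.4% of D05 genes, where 28.3% of all kept IDs were called (14.6% higher and 13.7% lower). The other D chromosomes together had 28.7% and A05 had 30.4%. D05 ranked first of 13, above D10 at 30.4% and D03, the lowest, at 26.9%. It was first for genes that rose (16.5%) and for genes that fell (15.9%). The balance of directions was not stable: in 8 of the 28 settings more D05 genes fell than rose, among them quantile normalization with 442 higher and 477 lower. At least 2-fold changes were called for 287 genes, or 9.96% against 8.41% of all kept IDs, second to D10 at 10.4%, and 52 changed at least 4-fold, or 1.80% against 1.43% of all kept IDs. The groups did not overlap for 958 genes, 33.2% against 29.7% of all kept IDs. Over the 28 settings D05 ranked first or second in JX, with an excess over the other D chromosomes of 2.49 to 3.94 percentage points when single libraries were left out. Without the 3 libraries that stood apart, 598 genes rose and 636 fell, or 42.8% against 40.1%.

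**Figure D1:**
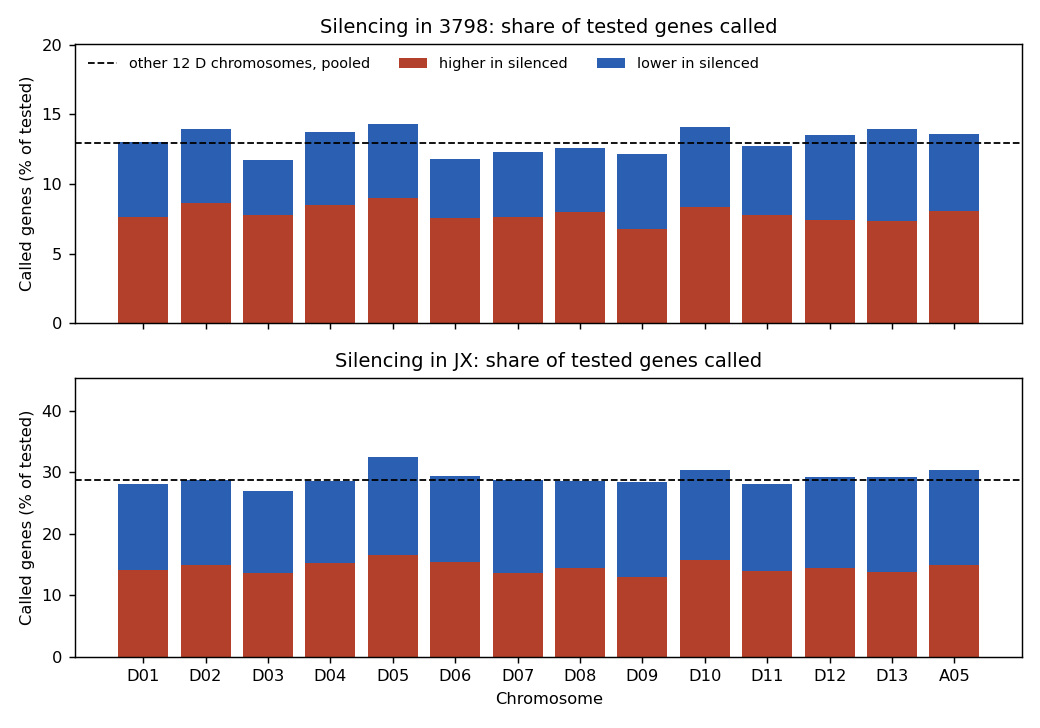
Share of tested genes called (%, limma adjusted p under 0.05) on each D chromosome and on A05, split into genes higher and lower in silenced apices, for strain 3798 above and JX below; the dashed line is the other 12 D chromosomes pooled. D05 has the tallest bar in both panels, by 14.3% against 14.1% on D10 in 3798 and by 32.4% against 30.4% on D10 in JX.

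The median change over all D05 genes was near 0 in both strains, 0.02 in 3798 and -0.00 in JX on the log2 scale. The share called was also compared at like levels. In JX, D05 had a larger share than the other D chromosomes in each of 4 level classes: 32.7% against 26.8% under 1 FPKM, 30.3% against 27.9% from 1 to 5, 32.1% against 28.7% from 5 to 20, and 39.1% against 33.4% above 20. In 3798 the shares in the same order were 17.7% against 13.9%, 13.8% against 13.4%, 13.6% against 11.8%, and 14.8% against 14.7%. The A05 shares in JX were 30.5%, 29.2%, 29.7% and 37.1%, below those of D05 in each class. In 3798 the A05 shares were 9.97%, 13.84%, 14.04% and 14.70%. There D05 was clearly above A05 under 1 FPKM alone. It was near A05 from 1 to 5 and above 20, and below it from 5 to 20.

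The limit on low values left out 720 D05 IDs. Of the 2883 genes kept, 2378 (82.5%) reached 0.5 FPKM in all 16 libraries. These genes did not depend on the limit, but they leave out any gene near 0 in control or silenced libraries. Of them, 12.4% were called in 3798 and 31.0% in JX, against 11.7% and 27.6% on the other D chromosomes. The other kept D05 genes include some kept through control or silenced libraries alone, and of them 23.6% were called in 3798 and 39.4% in JX. No like share for other chromosomes is given here, so these higher shares cannot be read as a trait of D05. At the edge, 41 genes reached the limit in exactly 4 libraries and 30 IDs in 3. The value that had to reach the limit, the fourth from the top among the 16 libraries, was 0.501 FPKM for the lowest gene kept and 0.495 FPKM for the highest ID left out. For 2 of the 41, all 4 libraries belonged to 1 group, and both were called.

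Many of the genes changed alike in the 2 strains. The 2 comparisons share no library, but the fit shares its estimate of each gene's spread between them, so their calls are not independent. In all, 266 D05 genes were called in both strains in the same direction, 169 higher and 97 lower. They were 9.23% of D05 genes, where 7.51% of all kept IDs were called alike (4.57% higher in both and 2.94% lower in both). Without the 3 libraries that stood apart, the count was 320, and in fits to the compared groups alone it was 186. The 266 genes made up 64.4% of the 3798 calls and 28.4% of the JX calls on D05. Over all kept IDs these shares were 58.7% and 26.5%, and on the other D chromosomes 57.4% and 25.9%. On the other D chromosomes 7.44% of genes were called alike and on A05 7.51%. A further 145 D05 genes were called in 3798 alone and 667 in JX alone, and 1803 in neither. Among all 55040 kept IDs the same counts were 2855, 11385 and 36615. A call in 1 strain alone does not show that the strains differed.

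The difference between the strains' responses was tested directly as an interaction. With limma and adjusted p, 0 of the 2883 D05 genes passed, where 0.00363% of all kept IDs did, although 691 (24.0%) had an unadjusted p under 0.05, against 21.7% of all kept IDs. A single library decides this count: without 3798 control 3, 516 D05 genes passed (17.9%, against 16.8% on the other D chromosomes). Weighting each library by its spread gave 597 (20.7% against 19.8%). The smallest interaction p of negative sign belonged to Gh_D05G065100. Its FPKM was 5.18, 4.76, 8.76 and 6.66 in 3798 controls and 7.34, 7.06, 10.8 and 11.9 in 3798 silenced libraries. In JX it was 16.3, 13.1, 14.5 and 15.7 in controls and 8.60, 7.24, 8.43 and 7.45 in silenced libraries. The JX groups did not overlap and the 3798 groups did. The interaction was -1.39 on the log2(FPKM + 0.5) scale (SE 0.253, adjusted p = 0.0785 by limma), and without 3798 control 3 it was -1.54 (adjusted p = 0.0018).

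The smallest interaction p of positive sign belonged to Gh_D05G159600, which had 4.85, 4.82, 3.98 and 4.50 FPKM in 3798 controls and 4.55, 4.83, 4.64 and 4.51 in 3798 silenced libraries. Its JX levels were 2.88, 2.23, 2.82 and 2.39 in controls and 4.88, 5.66, 4.39 and 4.03 in silenced libraries. All silenced JX libraries lay above the JX controls, close to the level of both 3798 groups. The interaction was 0.73 (SE 0.158, adjusted p = 0.0811 by limma; without 3798 control 3, adjusted p = 0.0068). The second gene of each sign was Gh_D05G179100 at -1.06 and Gh_D05G211700 at 0.78, with adjusted p of 0.0785 and 0.0838.

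In the 2 strains, 2 D05 genes (0.0694%) were called in opposite directions, where 0.0945% of all kept IDs were, and both are named after their values were seen. Gh_D05G179100 had 16.8 to 26.9 FPKM in 3798 controls and 24.3 to 35.5 in 3798 silenced libraries, and 39.4 to 46.0 in JX controls and 26.4 to 32.4 in JX silenced libraries. Gh_D05G144200 had 2.60 to 3.67 and 3.82 to 4.27 FPKM in 3798, and 4.33 to 4.90 and 3.22 to 4.00 in JX. Both were highest in JX controls. Their changes in 3798 were small, 0.47 and 0.36 on the log2 scale, with limma adjusted p of 0.0359 and 0.0362. These calls did not hold when single libraries were left out. The change in 3798 lost its call without any of 3798 control 1, 2 or 4 and 3798 silenced 2 or 4 for both genes, with adjusted p up to 0.125 and 0.118, and in a fit to the compared groups alone, with 0.120 and 0.116. For Gh_D05G144200 it was also lost without 3798 silenced 1 or 3, and its change in JX was lost without JX control 1 or 4 or JX silenced 2 or 3 (adjusted p up to 0.0632).

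Gh_D05G028500 had the smallest p among genes that rose, in both strains. It had 0.627, 0.744, 0.871 and 0.488 FPKM in 3798 controls and 6.46, 6.19, 10.9 and 7.33 in 3798 silenced libraries. In JX the values were 0.596, 1.003, 1.38 and 0.789 in controls and 9.21, 10.4, 9.12 and 6.71 in silenced libraries. Every silenced library lay far above every control library of either strain. The changes were 2.77 in 3798 and 2.71 in JX on the log2(FPKM + 0.5) scale (SE 0.197, n = 4; limma adjusted p = 9.0e-08 and 1.2e-07), a scale that understates the change of genes this low in controls.

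Gh_D05G008600 was the second in 3798. Its controls held 4.09, 3.63, 6.41 and 7.02 FPKM and its silenced libraries 38.7, 32.4, 36.5 and 32.0. JX controls held 14.02, 8.74, 8.48 and 8.94 and JX silenced libraries 36.4, 30.7, 49.6 and 33.5. Control levels differed between the strains, with JX higher, while silenced levels lay in the same range. The rise was 2.66 in 3798 and 1.86 in JX (SE 0.202; limma adjusted p = 2.1e-07 and 1.4e-05).

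Gh_D05G136500 was the second in JX. It went from 2.02, 2.43, 1.95 and 1.72 FPKM in JX controls to 7.02, 7.62, 7.36 and 5.13 in JX silenced libraries. In 3798 it went from 3.02, 3.25, 2.55 and 2.997 to 7.67, 7.57, 7.32 and 7.44. No silenced library overlapped a control library. The changes were 1.52 in JX and 1.22 in 3798 (SE 0.122; limma adjusted p = 4.1e-07 and 5.9e-06).

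Gh_D05G366900, Gh_D05G379900 and Gh_D05G386400 had the smallest p among genes that fell in 1 or both strains. All 3 belong to a group of 5 D05 genes that had at least 1 FPKM in every control library and lay more than 8-fold lower in every silenced library of both strains. The other 2, Gh_D05G379800 and Gh_D05G386600, are named after their values were seen. All but Gh_D05G386600 stayed under 0.5 FPKM in every silenced library, so they were kept through control libraries alone. Their p-values below thus belong to genes that the limit admitted on the side where they were high. The 5 genes hold places 2667, 2743, 2744, 2786 and 2788, all towards the end of the order. No D05 gene showed the reverse pattern. Over all kept IDs 0.113% fell this way and 0.173% showed the reverse, the other 12 D chromosomes together had 13 such genes beside 26 of the reverse pattern, and A05 had 1 beside 3. By share among the D chromosomes, D05, at 0.173%, lay below D04 at 0.211% and just above D13 at 0.166%.

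Gh_D05G379900 had 10.99, 14.5, 12.3 and 11.1 FPKM in 3798 controls and 4.62, 12.05, 13.9 and 11.9 in JX controls. It was listed at 0 in all 4 JX silenced libraries, and at 0, 0, 0.0837 and 0.00592 in 3798 silenced libraries. The lowest control, JX control 1, still lay far above every silenced library. The change was -4.60 in 3798 and -4.37 in JX (SE 0.238; limma adjusted p = 1.7e-09 and 3.3e-09), sizes that depend on the pseudocount of 0.5. Its neighbour Gh_D05G379800 had 3.86, 4.92, 4.24 and 4.94 FPKM in 3798 controls and 1.74, 3.15, 3.93 and 4.27 in JX controls. Silenced libraries held 0.0824 to 0.185 in 3798 and 0.0571 to 0.115 in JX. JX control 1 was again the lowest control for this gene.

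Gh_D05G386600 was the most abundant of the 5. It had 60.2, 57.6, 82.1 and 63.1 FPKM in 3798 controls and 1.53, 1.46, 1.59 and 2.20 in 3798 silenced libraries. JX controls held 48.9, 74.3, 77.7 and 107 and JX silenced libraries 0.963, 1.07, 2.38 and 0. It kept 0.963 FPKM or more in 7 of the 8 silenced libraries, where none of the other 4 genes exceeded 0.185. The change was -4.91 in 3798 and -5.79 in JX (SE 0.379; limma adjusted p = 4.3e-07 and 6.5e-08).

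Gh_D05G386400, 2 places before it, had 1.61, 1.32, 1.63 and 1.24 FPKM in 3798 controls and 1.96, 2.28, 2.31 and 2.37 in JX controls. In each strain it was listed at 0 in 3 silenced libraries, and the remaining one, silenced 3, held 0.0285 in 3798 and 0.0544 in JX. The change was -1.94 in 3798 and -2.41 in JX (SE 0.127; limma adjusted p = 3.2e-08 and 2.1e-09). Gh_D05G366900 had 3.96, 9.04, 14.01 and 8.18 FPKM in 3798 controls and 4.26, 4.78, 4.40 and 3.55 in JX controls. No silenced library exceeded 0.0453 in 3798 or 0.0228 in JX. The change was -4.06 in 3798 and -3.22 in JX (SE 0.245; limma adjusted p = 1.2e-08 and 2.1e-07).

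**Figure D2:**
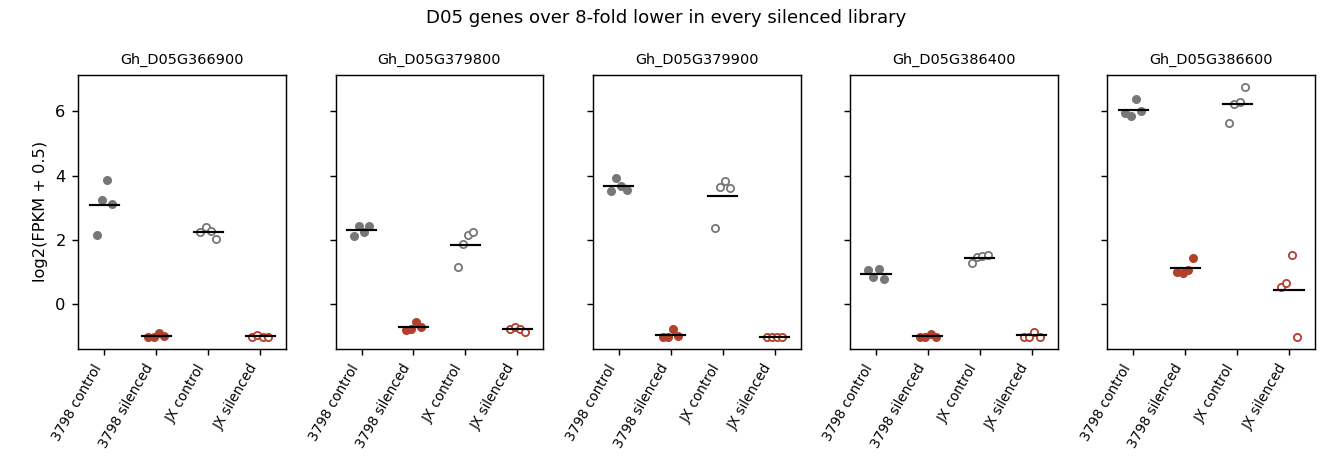
log2(FPKM + 0.5) in each of the 16 libraries for the 5 D05 genes that lay more than 8-fold lower in every silenced library; points are libraries, filled for 3798 and open for JX, grey for control and red for silenced, and bars are group means. Silenced libraries sit near the floor of -1 for 4 genes and between -1 and about 1.5 for Gh_D05G386600, which has 48.9 to 107 FPKM in controls.

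Summed over the 5 genes, control libraries held between 61.5 and 129 FPKM and silenced libraries between 0.0571 and 2.53. The genes were picked because every silenced library lies far below every control library, so each library had to follow its control or silenced label here, and the sum is no check of the labels.

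Most of the large changes on D05 lay towards the high end of the ID order. When the 2883 genes were divided by place into 3 parts of 961, those called with a change of at least 4-fold in 3798 numbered 6, 4 and 17 from first to last. In JX they numbered 10, 6 and 36. The last part thus held 63.0% of them in 3798 and 69.2% in JX, against 39.5% and 37.9% over the other 12 D chromosomes and 35.3% and 32.3% on A05. The pooled value averages chromosomes that are uneven towards opposite ends. The first part of D01 held 83.3% in 3798 and 76.0% in JX, so it was more uneven than D05 in both strains. The last part held 68.8% and 60.9% on D06, 63.6% and 62.9% on D10, and 66.7% in JX on D03. The share called at any size was more even, at 12.6%, 13.4% and 17.0% in 3798 and 30.3%, 35.2% and 31.8% in JX. IDs give order but no distance, and no coordinates are used here.

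**Figure D3:**
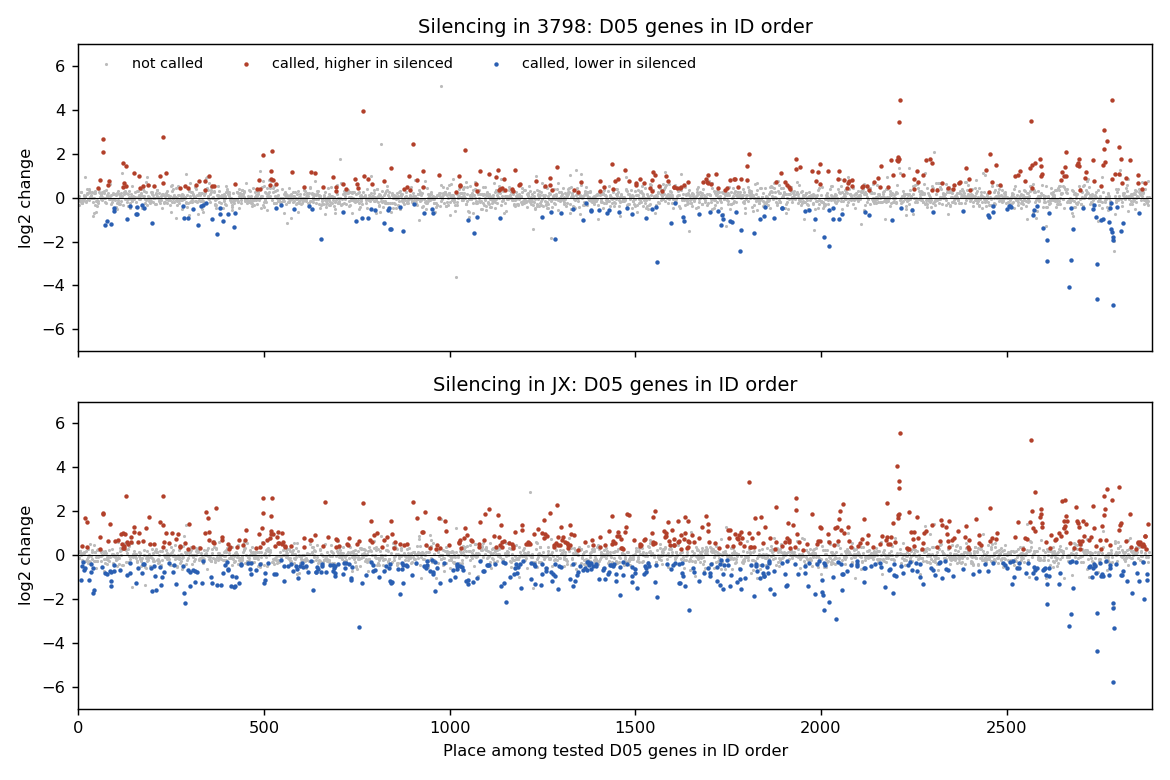
Change between silenced and control apices (log2, y axis) for the 2883 D05 genes by place in ID order (x axis), 3798 above and JX below; grey points were not called, red were called higher and blue lower. Of the genes called with at least 4-fold change, 17 of 27 in 3798 and 36 of 52 in JX lie in the last 961 places.

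In consecutive windows of 50 genes, the share called on D05 ranged from 0% to 40% in 3798, with a median of 14%. The 430 windows of the other D chromosomes ranged from 0% to 34% with a median of 12%, and the 58 windows of A05 from 6% to 24% with a median of 14%. The window at 40% held places 2751 to 2800, Gh_D05G380600 to Gh_D05G388000, with 9 genes higher and 11 lower. It had the largest share of 960 windows over all A and D chromosomes in 3798. In JX the same window held 10 genes higher and 13 lower, or 46%.

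In JX, D05 windows ranged from 16% to 52% with a median of 32%, against 10% to 50% and a median of 28% on the other D chromosomes and 18% to 42% with a median of 30% on A05. The share exceeded the pooled share of the other D chromosomes in 39 of 57 D05 windows (68.4%), as it did in 206 of their own 430 (47.9%) and 33 of 58 on A05 (56.9%). In 3798 this held for 32 of the 57 D05 windows (56.1%), 45.1% of those on the other D chromosomes and 58.6% of those on A05. The D05 window with the largest JX share held places 1601 to 1650, with 16 genes higher and 10 lower. Over all A and D chromosomes the highest JX window reached 60%, and it was not on D05. The leading D05 window in JX differs from the one that led in 3798, and in 3798 it held 10 called genes, or 20%.

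**Figure D4:**
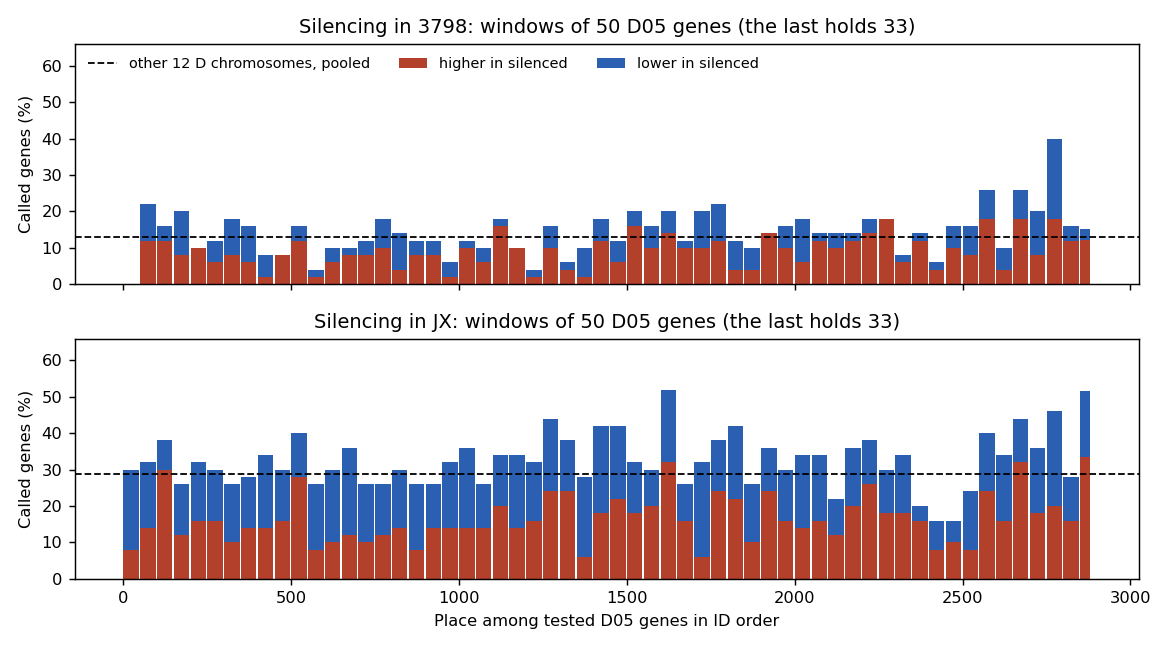
Share of D05 genes called (%) in consecutive windows of 50 by place in ID order, red for genes higher and blue for genes lower in silenced apices, 3798 above and JX below; the dashed line is the share over the other 12 D chromosomes. The window at places 2751 to 2800 reaches 40% in 3798 and 46% in JX, and the one at 1601 to 1650 reaches 52% in JX.

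Runs were defined as 3 or more consecutive kept genes called in the same direction. In 3798, D05 had 10 runs with 33 genes, 7 rising with 23 genes and 3 falling with 10. These were 7.99% of its called genes, against 4.39% on the other D chromosomes and 1.52% on A05, and the highest share was 9.68% on D02. In JX it had 30 runs with 99 genes, 17 rising with 58 genes and 13 falling with 41. They were 10.6% of its called genes, against 9.70% and 8.27%, which put D05 at rank 5 of 13, with D02 highest at 12.3%. Runs become more frequent as more genes are called, and whether D05 genes cluster was not tested. Of the 10 runs in 3798, 5 overlapped a JX run of the same direction. Counts of genes in runs of 3 or more moved with the settings, from 6 at an adjusted p under 0.01 to 73 with library weights in 3798, and from 24 to 202 in JX under the same settings. With single libraries left out they ranged from 16 without 3798 silenced 3 to 45 without 3798 control 3 in 3798, and from 44 without JX silenced 3 to 135 without JX silenced 4 in JX.

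Over the 2882 pairs of neighbours on D05, the correlation of their changes was weak. Pearson's r was 0.158 in 3798 and 0.127 in JX, against 0.0847 and 0.101 on the other D chromosomes and 0.00757 and 0.0479 on A05. Spearman's rho was 0.0672 and 0.0585 on D05, against 0.0570 and 0.0648 on the other D chromosomes and 0.0101 and 0.0443 on A05. On ranks D05 was thus above A05 in both strains, and above the other D chromosomes in 3798 alone. Neighbours share the same 8 libraries in each strain, and tandem copies could share reads.

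The longest run on D05 rose in both strains and began at Gh_D05G286100, place 2206. It spanned 5 genes to Gh_D05G286600 in 3798 and 6 genes to Gh_D05G286700 in JX. The run covered 6 ID numbers in 3798 and 7 in JX, so not every number in it belongs to a kept gene. In JX the longest runs on D07 and on A05 also held 6 genes. In 3798 the longest held 4 genes on the other D chromosomes and 3 on A05. All 6 genes of the D05 run had higher means in silenced than in control apices in both strains. Whether they are tandem copies of one another cannot be read from the table, and reads could be shared among them if they are.

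Gh_D05G286100 had 22.4, 23.8, 10.6 and 32.8 FPKM in 3798 controls and 95.7, 87.5, 62.0 and 44.5 in 3798 silenced libraries. In JX it had 3.04, 4.82, 3.76 and 2.37 in controls and 133, 49.7, 105 and 24.8 in silenced libraries. The groups did not overlap in either strain, and JX controls lay below 3798 controls. The change was 1.72 in 3798 and 4.06 in JX (SE 0.458, n = 4; limma adjusted p = 0.0227 and 2.9e-05). The interaction was 2.35 and did not pass, with adjusted p = 0.0989. The call in 3798 was lost without 3798 control 3, 3798 silenced 1 or 3798 silenced 2, with adjusted p of 0.0580, 0.0622 and 0.0645.

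Gh_D05G286600 was the most abundant gene of the run. It had 89.99, 54.1, 19.6 and 109 FPKM in 3798 controls and 264, 175, 201 and 148 in 3798 silenced libraries. In JX it had 21.4, 19.95, 10.8 and 24.7 in controls and 280, 173, 320 and 91.5 in silenced libraries. The groups did not overlap, and the library labelled 3798 control 3 held the lowest value of its group, near the level of JX controls. The change was 1.75 in 3798 and 3.36 in JX (SE 0.481; limma adjusted p = 0.0263 and 0.00022). The call in 3798 was lost without 3798 control 2, 3798 silenced 1, 3798 silenced 2 or 3798 silenced 3 (adjusted p from 0.0517 to 0.0689), and in a fit to the compared groups alone (0.0505).

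The genes at places 2207, 2208 and 2209 were near 0 in controls. No control library reached 0.5 FPKM for them, so they were kept through silenced libraries alone. The length of the run therefore rests in part on genes that the limit admitted on the side where they were high. The gene at place 2207 had 0.051 to 0.383 FPKM in 3798 controls and 0.79 to 2.86 in 3798 silenced libraries, and at most 0.15 against 0.637 to 3.52 in JX. The gene at place 2208 had at most 0.150 in any control, 1.11 to 1.57 in 3798 silenced libraries and 0.566 to 4.91 in JX silenced libraries. The gene at place 2209 had at most 0.0953 in any control and 4.31 to 8.40 in 3798 silenced libraries, but 8.46, 1.69, 29.4 and 0.0856 in JX silenced libraries. JX silenced 4, one of the libraries that stood apart, thus remained at the control level at place 2209.

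Gh_D05G286700, the last gene of the run in JX, had 4.37, 1.90, 1.53 and 10.8 FPKM in JX controls and 19.6, 16.03, 19.5 and 6.72 in JX silenced libraries. JX control 4 lay above JX silenced 4, so the groups overlapped. The change was 1.87 in JX (SE 0.515; limma adjusted p = 0.015, and 0.0507 without JX control 3). In 3798 it was 1.37 and did not pass (adjusted p = 0.099).

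**Figure D5:**
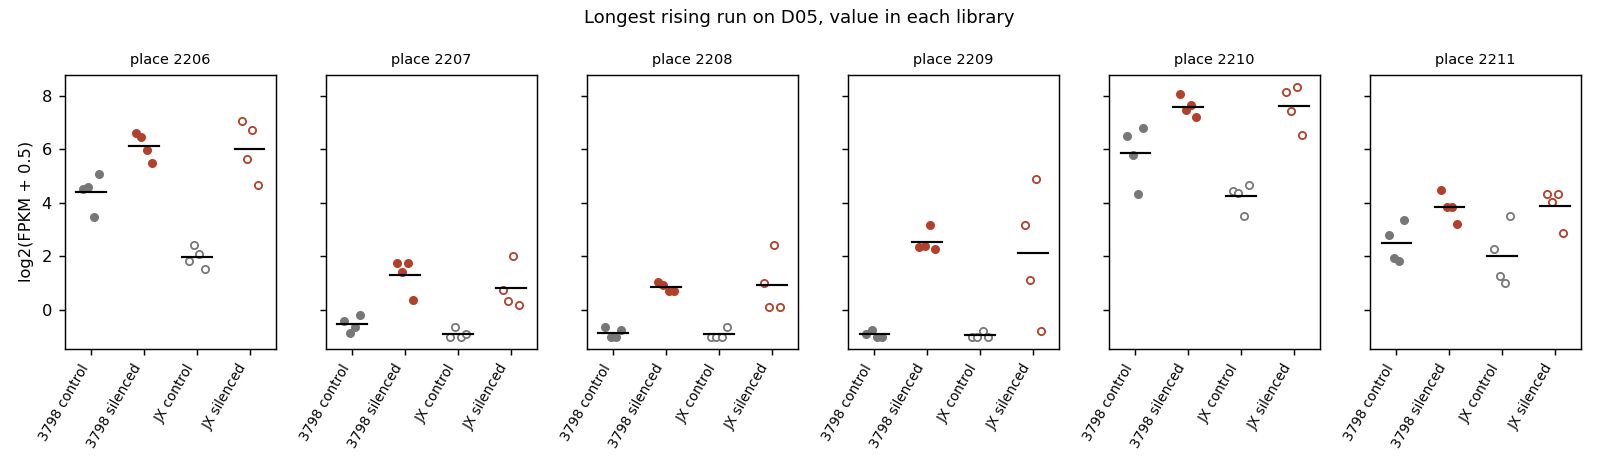
log2(FPKM + 0.5) in each of the 16 libraries for the 6 genes of the longest rising run, places 2206 to 2211; points are libraries, filled for 3798 and open for JX, grey for control and red for silenced, and bars are group means. The silenced means lie above the control means in both strains for every gene, and 1 JX silenced library stays at the control level at place 2209.

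The longest falling run in 3798 covered 4 genes, Gh_D05G385700 to Gh_D05G386100. Gh_D05G385700 went from 3.75, 3.86, 5.30 and 4.30 FPKM to 2.63, 3.002, 2.68 and 3.24 in 3798, and from 4.90, 5.49, 5.40 and 5.76 to 3.48, 3.58, 3.44 and 4.56 in JX. The groups did not overlap in either strain, and the changes of -0.50 and -0.47 were small (SE 0.119; limma adjusted p = 0.0115 and 0.0090). In a fit to the compared groups alone its adjusted p in 3798 was 0.0506.

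Gh_D05G386100 showed a larger fall in 3798, from 147, 125, 95.8 and 95.6 FPKM to 45.9, 39.7, 43.6 and 28.2. In JX it had 36.4, 74.0, 56.5 and 63.7 in controls and 36.2, 65.4, 43.2 and 38.9 in silenced libraries, which overlap. The change was -1.54 in 3798 (SE 0.231; limma adjusted p = 0.00032) and -0.32 in JX (adjusted p = 0.325). The interaction of 1.23 did not pass (adjusted p = 0.094). The middle 2 genes of this run were called in 3798 and not in JX. The gene at place 2781 changed by just -0.25 in 3798 (limma adjusted p = 0.0481). Its 3798 groups overlapped, with 15.1 FPKM in the lowest control and 15.4 in the highest silenced library. The length of the run depends on this call.

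In JX the longest falling runs held 4 genes each, and there were 2 of them. One lay far from the end of the order, at places 689 to 692 (Gh_D05G086000 to Gh_D05G086500), with changes of -0.96 to -0.49 on the log2 scale. The other, with the smaller mean p, lay a few places past the run just described, from Gh_D05G386400 to Gh_D05G386700, and its first 3 genes also formed a run in 3798. That run holds 2 of the 5 genes described above. Its second gene had 1.196 to 2.24 FPKM in 3798 controls, 1.55 to 2.72 in JX controls and at most 0.196 in any silenced library. Both this gene and Gh_D05G386400 were kept through control libraries alone. In both strains the length of the run thus rests in part on genes admitted by the limit where they were high. Gh_D05G386700, the last, had 38.1, 0.663, 33.6 and 34.8 in 3798 controls and 1.45, 4.22, 2.87 and 6.72 in 3798 silenced libraries. In JX it had 26.5, 59.7, 38.9 and 64.4 in controls and 2.56, 9.44, 2.31 and 4.52 in silenced libraries. The JX groups did not overlap, but 3798 control 2 lay below every silenced library of its strain. The change was -3.31 in JX (SE 0.909; limma adjusted p = 0.0153) and -1.98 in 3798, which did not pass (adjusted p = 0.182).

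The control apices of the 2 strains also differed at many D05 genes, in a comparison that shares its libraries with both silencing comparisons. By limma, 941 D05 genes differed, 545 higher and 396 lower in JX. They were 32.6% of D05 genes, where 29.8% of all kept IDs were called (17.6% higher and 12.2% lower). The other D chromosomes had 31.6% and A05 31.4%, and D05 was at rank 4 of 13. At least 2-fold differences were called for 183 genes, 6.35% against 5.63% of all kept IDs, and the control groups did not overlap for 784, 27.2% against 25.1%. The count fell to 621 without 3798 control 2 and rose to 1222 without 3798 control 3. Without the 3 libraries that stood apart it was 1310, or 45.4% against 44.3% on the other D chromosomes.

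The 2 genes with the smallest p that were higher in JX controls were Gh_D05G179100, given above, and Gh_D05G219700. The latter had 6.71, 6.84, 9.26 and 7.21 FPKM in 3798 controls and 14.6, 13.4, 14.4 and 13.9 in JX controls, a difference of 0.88 on the log2 scale (SE 0.118; limma adjusted p = 0.0015). Its silenced levels were 8.25 to 10.7 in 3798 and 8.08 to 11.2 in JX. The control groups did not overlap and the silenced groups did. Of the genes lower in JX controls, Gh_D05G091100 had 100.03, 90.7, 64.3 and 94.7 FPKM in 3798 and 32.4, 41.2, 30.6 and 34.6 in JX, a difference of -1.31 (SE 0.155; limma adjusted p = 0.0015). Gh_D05G180300 had 26.8, 30.9, 19.3 and 24.97 in 3798 and 10.3, 12.7, 11.7 and 11.8 in JX, a difference of -1.08 (SE 0.140; limma adjusted p = 0.0015). For each of these 4 genes 3798 control 3 was the 3798 control nearest to the JX controls.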

How the data were processed

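Messenger RNA of 16 cotton libraries in 4 groups of 4 was sequenced on an Illumina HiSeq 2000, per the labels. The authors deposited 1 table of FPKM values per gene ID for all libraries. Aligner, quantifier, annotation and genome build: not given in the sources used here. FPKM are normalized values and not counts, so no count model was fitted. Read counts cannot be recovered, since just 13.2% of 66602 low values came within 0.02 of being whole reads.

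IDs with FPKM of 0.5 or more in at least 4 libraries were tested with limma 3.58.1 (R 4.3.3) on log2(FPKM + 0.5), with 1 mean per group over all 16 libraries, a trended robust prior and Benjamini-Hochberg adjustment over 55040 IDs, two-sided, at 0.05. The script was checked on simulated data. Summaries used Python 3.11.15 with pandas 2.3.3. The members and lists were chosen with earlier results of these data known. Named IDs are, per comparison, the 2 with the smallest p in each direction among called IDs whose groups did not overlap (for the interaction, the 2 of each sign), and the first and last ID of the longest runs; any other named ID is said to be chosen after its values were seen. Alternatives were 2 other pseudocounts, 2 other filters, 2 other scalings, a fit to the compared groups, a replicate block, library weights, a threshold of 0.01, other run lengths and left-out libraries. Runs were also counted with untested IDs ending a run. No sequence or coordinate was used.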

Additional observations from a re-analysis of the deposited data

Results flagged for a closer look

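Over the named genes and 2 measures of D05 as a whole, its share of D-chromosome FPKM and its genes listed at 0, 96 groups of 4 libraries were checked for a single library far from the other 3, and 9 were flagged, where chance flags about 5%. Most lie near 0, where 1 low value stands beside values listed at 0. Gh_D05G366900 had 0.0453 FPKM in 3798 silenced 3, with 0.00504 next, and 0.0228 in JX silenced 2, with the others at 0. Gh_D05G379900 had 0.0837 in 3798 silenced 3, with 0.00592 next. Gh_D05G386400 had 0.0285 in 3798 silenced 3 and 0.0544 in JX silenced 3, with the others at 0. The library 3798 silenced 3 thus held the highest of these low values in its group for all 3 genes. It also had the greatest estimated relative depth, 1.33, which is an uncertain estimate. The part of depth in this was not tested.

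Larger gaps appeared in 4 groups. Gh_D05G386700 had 0.663 FPKM in 3798 control 2, where the next lowest 3798 control held 33.6. Gh_D05G379900 had 4.62 in JX control 1, where the next lowest JX control held 11.9. Gh_D05G008600 had 14.02 in JX control 1, where the next highest held 8.94. Gh_D05G385700 had 4.56 in JX silenced 4, where the next highest held 3.58.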

How the results depend on the processing

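No named gene's change reversed its sign in any setting run, and the D05 excess over the other D chromosomes stayed above 0. In JX, the balance of higher and lower calls (477 and 458) turned in 8 of 28 settings, for example to 442 and 477 with quantile normalization and 604 and 634 with library weights; in 3798 and between controls it turned in none of the 28. At an adjusted p under 0.01, D05 had 186 called genes in 3798, 483 in JX, 115 alike in both strains and 427 between controls, with 6 and 24 genes in runs. Library weights gave 639 called in 3798, 597 for the interaction, and 73 and 202 genes in runs. Without 3798 control 3, 3798 silenced 4 and JX silenced 4 together, the interaction called 627 genes, and runs held 58 and 183. Runs in 3798 held 19 genes in a fit to the compared groups and 21 with a mean FPKM of at least 1. Runs of 2 or more held 97 genes in 3798 and 351 in JX, and runs of 4 or more held 9 and 30. Where untested IDs were made to end a run, runs of 3 or more held 26 genes in 3798 and 79 in JX. The cause of these moves was not tested, except that stricter limits keep fewer genes by construction.

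With single libraries left out, called genes ranged from 260 (without 3798 control 2) to 506 in 3798, 642 to 1060 in JX, 183 to 299 alike in both strains, 621 (without 3798 control 2) to 1222 between controls, and 0 to 516 (without 3798 control 3) for the interaction. Genes in runs ranged from 16 to 45 in 3798 and 44 to 135 in JX. Besides the ends of these ranges, runs moved most without 3798 silenced 1 (21) or 2 (18), and without JX control 3 (56), JX silenced 1 (59) or JX silenced 2 (61). The excess of D05 over the other D chromosomes ranged from 0.399 to 1.79 points in 3798 and 2.49 to 3.94 in JX.

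Whether the replicate numbers pair the libraries is not in the labels. Same-numbered control and silenced libraries deviated together with correlations from -0.23 to 0.19, and differently numbered ones from -0.29 to 0.44. The highest value was that of 3798 control 3 with 3798 silenced 4, which both stood apart. Such correlations cannot decide whether the libraries were paired. With the replicate block, 386 genes were called in 3798, 893 in JX, 885 between controls and 0 for the interaction. Of the refits of named genes, 314 of 337 in 3798, 306 of 311 in JX and all 104 between controls kept their side of the threshold; 23 and 5 lost it, and 12 of 100 interaction refits passed. Absolute depth is unknown, which limits what can be read from values near 0.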

Other observations

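Some D05 genes had libraries of the same group far apart. By a rule chosen after values were seen, a gene was split when a gap of 8-fold or more left at least 2 of the 16 libraries on each side, with at least 1 FPKM on the high side, and at least 1 group had libraries on both sides. Values under 0.1 FPKM counted as 0.1. This held for 15 of 2883 D05 genes (0.520%) and for 0.416% of all kept IDs, with 0.335% on the other D chromosomes, among them 0.520% on D08, and 0.275% on A05. Of the 15, 4 were called in either strain, as were 1080 of the 2883 D05 genes. The examples below were picked for their gaps, and the cause was not tested.

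Gh_D05G123000 had 68.7 to 132 FPKM in 12 libraries and at most 0.672 in 3798 control 1, 3798 control 3, 3798 control 4 and JX control 1. Its difference in 3798, 5.08 on the log2 scale, was not called (limma adjusted p = 0.0702). Gh_D05G128300 had 11.3 to 18.9 FPKM in 10 libraries and at most 0.0980 in the other 6, among them 3 of the 3798 silenced libraries, JX control 1, JX control 2 and JX silenced 2. Gh_D05G386300, within the densest 3798 window and between the falling runs, had 7.04 to 14.9 FPKM in the 4 3798 silenced libraries, JX silenced 1 to 3 and JX control 1. It had at most 0.477 in the remaining 8 libraries, JX silenced 4 included. It was called higher in both strains (limma adjusted p = 0.0027 and 0.0372).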
